A study of Mus musculus with 3 samples.

Results

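Transcripts of 9 mouse genes were followed through 3 single-cell libraries. They encode the extracellular proteinases *Mmp2*, *Mmp3*, *Mmp13*, *Mmp14*, *Mmp19* and *Adamts1* and the tissue inhibitors of metalloproteinases *Timp1*, *Timp2* and *Timp3*. The genes were chosen by symbol among the 27998 genes of the count matrices, with earlier results of these data known. Each symbol matched a single row. The study profiled unsorted cells of bone marrow, blood and tendon injury 3 days after burn/tenotomy, a dorsal skin burn combined with transection of the Achilles tendon that leads to heterotopic ossification (HO), the growth of bone in soft tissue. Mice were 10 weeks old when injured and, per the study's methods, male C57BL/6J, and these libraries were made to follow neutrophils from marrow to the injury. Each tissue gave 1 library, all animals were injured and no uninjured library was analysed here, so a level at the injury site cannot be read as a response to injury. Marrow was flushed and blood was spun on Ficoll, both with red cell lysis, whereas the injury site alone was digested with collagenases and dispase. Tissue, preparation and library therefore cannot be told apart, and none of the differences given here has a replicate check.

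Matrix metalloproteinases are zinc enzymes that are made as inactive precursors and cut collagens, proteoglycans and other proteins of the extracellular matrix once their propeptide is removed. The membrane-anchored enzyme encoded by *Mmp14* activates the secreted precursor encoded by *Mmp2*, a step in which the *Timp2* product takes part as an adaptor, and the *Mmp3* product activates further precursors. Tissue inhibitors bind the active site of these enzymes, and in tendon and healing wounds fibroblasts are a known source of both enzymes and inhibitors.

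Cells were kept at 200 or more detected genes and at most 20% mitochondrial unique molecular identifiers (UMIs, each standing for 1 captured RNA molecule). Levels are UMIs of a gene per 1000000 UMIs of a class or cluster (CPM), and their exact Poisson intervals cover counting error only. The filter and the removal of likely doublets left 1813 marrow, 2146 blood and 4780 tendon injury cells, with medians of 22893, 8360.5 and 12177.5 UMIs a cell. Clusters were made in each library without the 9 genes and named from marker lists, and every such name means "like" in its markers. In the tendon injury library 695 cells were mesenchymal-like, and all 13 of their markers were raised in each of the 3 clusters that make up the class. Their summed marker level was 24979 CPM, against 9138 in mural-like cells and 82.1 to 998 in the other named classes. Further classes were monocyte/macrophage-like (2156 cells), neutrophil-like (560), endothelial-like (292), keratinocyte-like (184), skeletal muscle-like (177), dendritic-like (173), mural-like (111), Schwann-like (62), basophil/mast-like (47) and B-like (22), and 301 cells led by antigen presentation genes stayed unnamed. At most 5 cell barcodes were shared between any pair of libraries.

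By the GENCODE M21 annotation of GRCm38, *Mmp3* (chr9:7445822-7455975 on the plus strand) and *Mmp13* (chr9:7272514-7283331 on the plus strand) lay close together, *Mmp2* lay at chr8:92827291-92853420 on the plus strand and *Mmp14* at chr14:54431612-54445364 on the plus strand. *Mmp19* lay at chr10:128790910-128800824 on the plus strand, where *Tmem198b* and an antisense gene overlap it on the opposite strand. The inhibitors lay at chrX:20870166-20874735 on the plus strand (*Timp1*, within *Syn1* on the opposite strand), chr11:118301069-118355740 on the minus strand (*Timp2*, which shares its strand with the overlapping *Cep295nl*) and chr10:86300372-86349506 on the plus strand (*Timp3*, within *Syn3* on the opposite strand). *Adamts1* lay at chr16:85793827-85803113 on the minus strand. Of the overlapping genes only *Syn1* and *Syn3* were counted: *Syn1* had 207 UMIs and *Syn3* 142 in the kept tendon injury cells, against 114123 for *Timp1* and 6464 for *Timp3*.

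Of the 9 genes, 7 had a promoter entry in RefSeq (GRCm38.p6), and the 250 bases before the annotated start were searched on both strands for 3 motifs. The letters TGANTCA, the core of an AP-1 site, were found in *Mmp3* and *Mmp13* and in 6.75% of all 32851 promoter entries of this length. TATAAA was found in *Mmp3*, *Mmp13* and *Adamts1* and in 12.4% of entries, and GGGCGG, the core of an Sp1 site, in *Mmp14*, *Timp1*, *Timp2*, *Timp3* and *Adamts1* and in 32.7%. The 4 promoters below are shown because *Mmp3* and *Timp1* were both led by mesenchymal-like cells with different letters near the start, *Mmp13* shares the letters of *Mmp3* but was found in few cells, and *Adamts1* was led by vessel cells. Each is printed 5′ to 3′ in the direction of the gene, up to the base before the start, with matches to the 3 motifs on either strand in capitals. A match describes the letters only.
*Mmp3*, chr9:7445572-7445821, plus strand: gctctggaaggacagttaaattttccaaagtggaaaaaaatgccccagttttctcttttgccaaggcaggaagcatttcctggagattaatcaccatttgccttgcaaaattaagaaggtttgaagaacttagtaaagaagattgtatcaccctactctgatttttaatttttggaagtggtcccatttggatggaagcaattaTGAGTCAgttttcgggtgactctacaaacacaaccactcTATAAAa
*Mmp13*, chr9:7272264-7272513, plus strand: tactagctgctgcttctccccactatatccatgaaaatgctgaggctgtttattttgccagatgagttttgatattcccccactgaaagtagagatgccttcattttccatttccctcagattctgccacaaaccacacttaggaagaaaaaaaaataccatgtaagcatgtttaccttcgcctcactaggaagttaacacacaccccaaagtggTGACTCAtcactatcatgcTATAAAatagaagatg
*Timp1*, chrX:20869916-20870165, plus strand: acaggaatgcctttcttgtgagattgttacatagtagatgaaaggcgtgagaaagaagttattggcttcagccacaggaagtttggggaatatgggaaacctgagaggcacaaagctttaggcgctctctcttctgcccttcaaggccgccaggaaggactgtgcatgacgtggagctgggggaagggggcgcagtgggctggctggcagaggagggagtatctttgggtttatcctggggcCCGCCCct
*Adamts1*, chr16:85803114-85803363, minus strand: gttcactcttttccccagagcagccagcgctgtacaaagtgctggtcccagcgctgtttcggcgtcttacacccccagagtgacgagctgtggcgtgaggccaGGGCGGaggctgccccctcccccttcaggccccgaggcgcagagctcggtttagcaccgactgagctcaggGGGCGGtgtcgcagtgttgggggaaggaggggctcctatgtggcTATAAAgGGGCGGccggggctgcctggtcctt
In *Mmp3* the AP-1 letters began 46 bases before the start and in *Mmp13* 35 bases before it. The share of G and C was 37.6% in *Mmp3* and 40.4% in *Mmp13*, against 54.4% in *Timp1*, 65.6% in *Adamts1* and a median of 52.4% over all entries.

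Across the injured tendon the 9 genes did not share 1 pattern. *Mmp2*, *Mmp3* and *Timp1* were strongly led by mesenchymal-like cells, *Mmp13* came from very few cells, and *Mmp14* was spread over mesenchymal-like, vessel and macrophage cells. *Mmp19* was led by monocyte/macrophage-like cells and *Timp2* was found in nearly every class. *Timp3* was led by Schwann-like and then vessel cells, and *Adamts1* by vessel cells. Mesenchymal-like cells were 14.5% of the cells and held 30.7% of all UMIs. They held 98.7% (95% interval 98.6% to 98.9%) of the *Mmp3* UMIs, 95.7% (95% interval 95.3% to 96.1%) of those of *Mmp2* and 93.6% (95% interval 93.4% to 93.7%) of those of *Timp1*. Their share was 52.0% for *Mmp14*, 50.6% for *Adamts1*, 47.8% for *Timp3*, 39.0% for *Timp2* and 25.8% for *Mmp19*, so the last 2 were near or below the share of all UMIs.

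**Figure D1:**
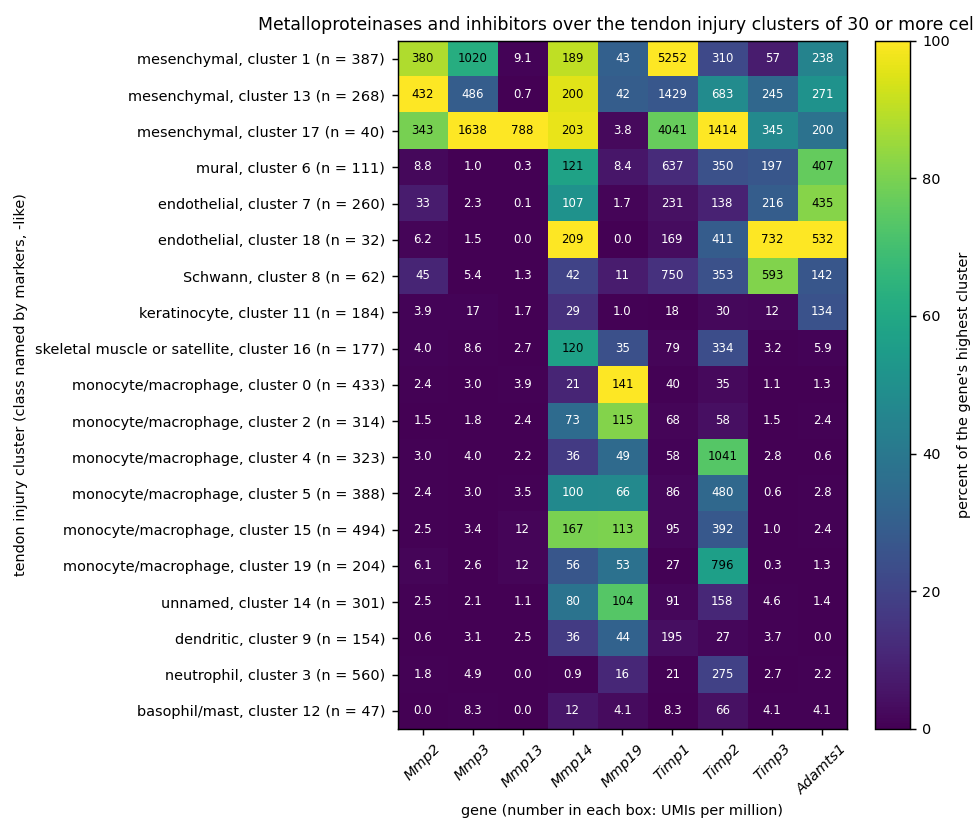
Level of the 9 genes (columns) in the tendon injury clusters of 30 or more cells (rows, with the class each was named for and its number of cells); the number in a box is CPM and the colour is the percent of that gene's highest cluster, so colours compare clusters within a gene. *Mmp2* is bright in the 3 mesenchymal-like clusters, *Mmp3* is brightest in cluster 17 and next in cluster 1, *Timp1* is brightest in cluster 1 and next in cluster 17, *Mmp13* is bright in cluster 17 alone, *Mmp19* in clusters 0, 2, 15 and 14, *Timp3* in clusters 18 and 8 and then 17, and *Adamts1* in clusters 18, 7 and 6.

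Set against all 4085 other cells of the library, 7 of the 9 genes were at least 2-fold higher in mesenchymal-like cells with an interval that left out no difference, a rule that 16.7% of the 15255 genes with 20 or more UMIs met. None was at least 2-fold lower, against 24.1% of genes. The median log2 ratio of the 9 genes was 1.28 and that of all genes 0.02. Because the 9 genes were chosen with earlier results of these data known, these figures describe the set and do not test it. The log2 ratio was 7.43 (95% interval 7.27 to 7.60) for *Mmp3*, 5.66 (95% interval 5.53 to 5.80) for *Mmp2*, 5.04 for *Timp1* and 3.14 (95% interval 2.91 to 3.37) for *Mmp13*. It was smaller for *Mmp14* at 1.28, *Adamts1* at 1.21 and *Timp3* at 1.04 (95% interval 0.97 to 1.11), the last of which sat at the edge of the rule and fell below it when doublets were kept. *Timp2* with 0.53 and *Mmp19* with -0.35 stayed within 2-fold. With each cell named by its own markers the ratios of *Mmp3*, *Mmp2* and *Timp1* were 4.74, 4.22 and 3.83, and with the mitochondrial filter left out that of *Mmp13* was 1.86, all still past the rule.

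*Mmp2* encodes a gelatinase that cuts denatured collagens and basement membrane. Its level was 394 (95% interval 386 to 402) in mesenchymal-like cells, 44.5 (95% interval 30.6 to 62.5) in Schwann-like cells and 30.6 (95% interval 27.0 to 34.6) in endothelial-like cells. These 2 followers did not differ beyond counting error (log2 ratio 0.54 (95% interval -0.03 to 1.07)), and every other class was at 8.76 or less. The Schwann-like level rested on few cells, as 14 of 62 held a UMI and 4 cells held 57.6% of the 33 UMIs. Within the endothelial-like cluster 7, a finer clustering set apart 119 cells led by *Ackr1* and the adhesion genes *Selp* and *Sele* with *Mmp2* at 55.4 and 141 cells led by the mural gene *Rgs5* with 7.77. With each cell thinned to 1000 UMIs, 34.0% of mesenchymal-like cells and 0.186% of neutrophil-like cells held an *Mmp2* UMI. Before thinning the shares were 94.0% at a median of 34300 UMIs a cell and 0.714% at a median of 3492.

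*Mmp3* encodes a stromelysin that cuts proteoglycans and fibronectin. Its level was 886 (95% interval 875 to 898) in mesenchymal-like cells, and the highest level among the other classes of 40 or more cells was 16.8 (95% interval 14.0 to 19.9) in keratinocyte-like cells. Of the 184 keratinocyte-like cells, 39 held the 130 UMIs, and the 4 richest held 47.7% of them. In monocyte/macrophage-like cells the level was 3.10, in endothelial-like cells 2.25 and in mural-like cells 0.973. After thinning to 1000 UMIs, 25.4% of mesenchymal-like cells held a UMI, against 2.19% of keratinocyte-like, 0.928% of neutrophil-like and 0.347% of endothelial-like cells.

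*Mmp13* encodes a collagenase that cuts fibrillar collagen and is known from cartilage and bone. Its level was 30.3 (95% interval 28.2 to 32.5) in mesenchymal-like cells, 6.12 (95% interval 5.23 to 7.12) in monocyte/macrophage-like cells and 2.69 or less elsewhere. The neutrophil-like cells held 0 UMIs, which allows a level of up to 1.34 by the limit of 3 counts. Of the 785 mesenchymal-like UMIs, 619 lay in the 40 tenocyte-like cells, at 788 (95% interval 727 to 853), against 9.09 (95% interval 7.74 to 10.6) in cluster 1 and 0.675 (95% interval 0.219 to 1.57) in cluster 13. These intervals do not hold the spread between cells, because 3 of the 40 cells held 211, 207 and 196 of the 619 UMIs, another held 5 and 36 held none. Each of the 3 cells had a UMI for 8 of the 10 tenocyte markers, where the other 37 cells had a median of 7. The same 3 cells held 16, 33 and 15 UMIs of *Mmp14*, against a median of 2 in the other 37, and 32, 29 and 6 UMIs of *Mmp2*, against a median of 3. These counts are not scaled for depth. The 3 cells had 18930, 18872 and 50699 UMIs in all, against a median of 18589, so the third was not rich in *Mmp2* for its depth. The cell with 5 *Mmp13* UMIs, of 40362 in all, also held 15 of *Mmp14* and 16 of *Mmp2*. A cell without *Mmp13*, of 34357 in all, held 26 of *Mmp2*. Another without *Mmp13*, of 10617 in all, held 12 of *Mmp14* and 20 of *Mmp2*. For its depth that was more of both than in the first of the 3 cells, so high *Mmp14* and *Mmp2* were not particular to the 3. The 3 cells were not rich in *Mmp3*, with 0, 0 and 31 UMIs against a median of 0. In cluster 1 likewise 15 of 387 cells held the 161 UMIs, 83 of them in 1 cell. The monocyte/macrophage-like signal was 11.6 (95% interval 9.18 to 14.5) in cluster 15, where 17 of 494 cells held 78 UMIs and 1 cell 40 of these, and 11.8 (95% interval 8.32 to 16.3) in cluster 19, where 14 of 204 cells held 37 UMIs and no cell more than 8.

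**Figure D2:**
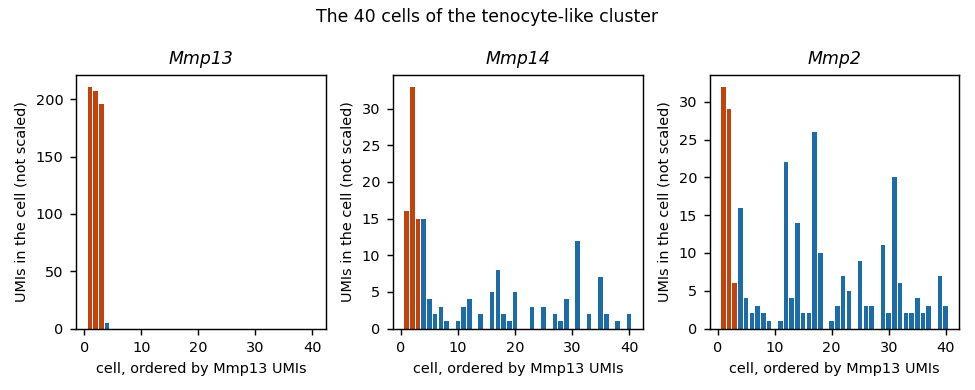
UMIs of *Mmp13*, *Mmp14* and *Mmp2* (vertical axes, not scaled for depth) in each of the 40 cells of the tenocyte-like cluster, ordered from left to right by *Mmp13* UMIs, with the 3 cells richest in *Mmp13* in orange. The 3 cells hold 211, 207 and 196 of the 619 *Mmp13* UMIs and 16, 33 and 15 of the 159 *Mmp14* UMIs of the cluster.

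*Mmp14*, the membrane-anchored enzyme, was led by mesenchymal-like cells at 193 (95% interval 188 to 198). Mural-like cells with 121, skeletal muscle-like cells with 119.8 and endothelial-like cells with 115 came next and did not differ between neighbours (log2 ratios 0.01 (95% interval -0.19 to 0.21) and 0.06 (95% interval -0.11 to 0.22)). The muscle-like class was mixed, since at the finer clustering 61 of its 177 cells carried neutrophil genes, and *Mmp14* was 167 in the 116 cells led by muscle genes and 63.8 in the 61. Monocyte/macrophage-like cells as a whole stood at 83.1, yet their cluster 15, led by *Arg1* and *Spp1*, reached 167 (95% interval 158 to 178), close to the mesenchymal-like level. Endothelial-like cluster 18, led by the lymphatic genes *Prox1* and *Flt4*, reached 209 (95% interval 176 to 248) on 32 cells. Neutrophil-like cells held 2 UMIs in 560 cells (0.891 (95% interval 0.108 to 3.22)).

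*Mmp19* encodes a secreted enzyme that acts on basement membrane proteins. It was not a mesenchymal-led gene. Monocyte/macrophage-like cells stood at 91.6 (95% interval 88.1 to 95.3), and the next classes were mesenchymal-like cells at 41.6 (95% interval 39.2 to 44.2) and dendritic-like cells at 41.1 (95% interval 32.2 to 51.8), which did not differ beyond counting error (log2 ratio 0.02 (95% interval -0.33 to 0.38)). The unnamed cluster led by antigen presentation genes stood at 104. Endothelial-like cells at 1.54 and keratinocyte-like cells at 1.03 were the lowest classes of 40 or more cells. The tenocyte-like cells held 3 UMIs, at 3.82 (95% interval 0.788 to 11.2), below both other mesenchymal-like clusters at 43.2 and 41.8.

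*Timp1* encodes a soluble inhibitor of most secreted metalloproteinases. Its level was 4122 (95% interval 4097 to 4147) in mesenchymal-like cells, 749.8 (95% interval 689 to 815) in Schwann-like cells and 637 (95% interval 609 to 665) in mural-like cells. Endothelial-like cells had 226 and dendritic-like cells 181, and from the first to the sixth class each level was above the next beyond counting error. In Schwann-like cells the level rested on few cells, as 28 of 62 held a UMI and 4 cells held 62.4% of the 556 UMIs. After thinning to 1000 UMIs, 74.1% of mesenchymal-like cells held *Timp1*, against 30.3% of mural-like, 28.3% of Schwann-like and 2.23% of neutrophil-like cells.

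*Timp2* encodes the inhibitor that also binds the *Mmp14* product on the cell surface. Monocyte/macrophage-like cells at 472 (95% interval 464 to 480.4) and mesenchymal-like cells at 450.3 (95% interval 442 to 459) differed little, with a log2 ratio of 0.07 (95% interval 0.03 to 0.10). Schwann-like, mural-like and skeletal muscle-like cells followed at 353, 349.8 and 334 with no difference between neighbours beyond counting error. Neutrophil-like cells stood at 275 (95% interval 254 to 298), with 21.7% of cells holding a UMI after thinning to 1000 UMIs. The lowest classes were keratinocyte-like cells at 30.3 and dendritic-like cells at 25.7.

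*Timp3* encodes the inhibitor that stays bound to the matrix and also acts on ADAM and ADAMTS enzymes. Schwann-like cells stood highest at 593 (95% interval 539 to 652), with a UMI in 56 of 62 cells, followed by endothelial-like cells at 256, mural-like cells at 197 and mesenchymal-like cells at 119 (95% interval 115 to 123). All 4 levels differed from the next beyond counting error, and every other class was at 12 or less. Inside the endothelial-like class the level was 732 (95% interval 668 to 801) in the 32 cells of cluster 18, although 4 of these held 61.3% of their 476 UMIs. It was 386 in the 141 cells with *Rgs5* and 60.1 in the 119 cells with *Selp*. Monocyte/macrophage-like cells stood at 1.28 (95% interval 0.888 to 1.77).

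*Adamts1* encodes a proteinase with thrombospondin repeats that cuts aggrecan and versican. Endothelial-like cells at 443 (95% interval 428 to 457) and mural-like cells at 407 (95% interval 385 to 430.4) stood above mesenchymal-like cells at 246 (95% interval 240.1 to 252). Of the 292 endothelial-like cells, 141 were led by the mural gene *Rgs5*, at 1053 beside *Pecam1* at 836. The class thus held cells with mural genes, and an order of endothelial above mural cells cannot be read from these levels. Schwann-like cells at 142 and keratinocyte-like cells at 134 did not differ beyond counting error (log2 ratio 0.08 (95% interval -0.23 to 0.37)). Of the 62 Schwann-like cells 21 held a UMI, and 4 cells held 60% of the 105 UMIs. After thinning to 1000 UMIs, 34.4% of endothelial-like, 22.2% of mesenchymal-like and 12% of keratinocyte-like cells held a UMI, against 0.469% of monocyte/macrophage-like cells.

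The mesenchymal-like cells fell into 3 clusters. Cluster 1 (387 cells) was led by *Crabp1*, *Il1rl1*, *Cxcl5*, *Tnc* and *Prg4* and took neither second name, cluster 13 (268 cells) had 7 of 10 interstitial fibroblast markers raised within the class, and cluster 17 (40 cells) had all 10 tenocyte markers raised. *Timp1* and *Timp2* had different orders over them. *Timp1* was 5252 (95% interval 5218 to 5286) in cluster 1, 1429 (95% interval 1402 to 1456) in cluster 13 and 4041 (95% interval 3902 to 4184) in cluster 17, whereas *Timp2* was 310.3 (95% interval 302 to 319), 683 (95% interval 664 to 702) and 1414 (95% interval 1332 to 1499). *Timp3* followed *Timp2* in order, at 56.5, 245 and 345. *Mmp3* was 1019.9, 486 and 1638. *Mmp2* ranged from 343 to 432, *Mmp14* from 189 to 203 and *Adamts1* from 199.96 to 271, which are narrow ranges of CPM beside those of the inhibitors. In cluster 17 these levels rested on few cells, as the 4 richest held 40.5% of the *Mmp2*, 49.7% of the *Mmp14* and 59.2% of the *Adamts1* UMIs.

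**Figure D3:**
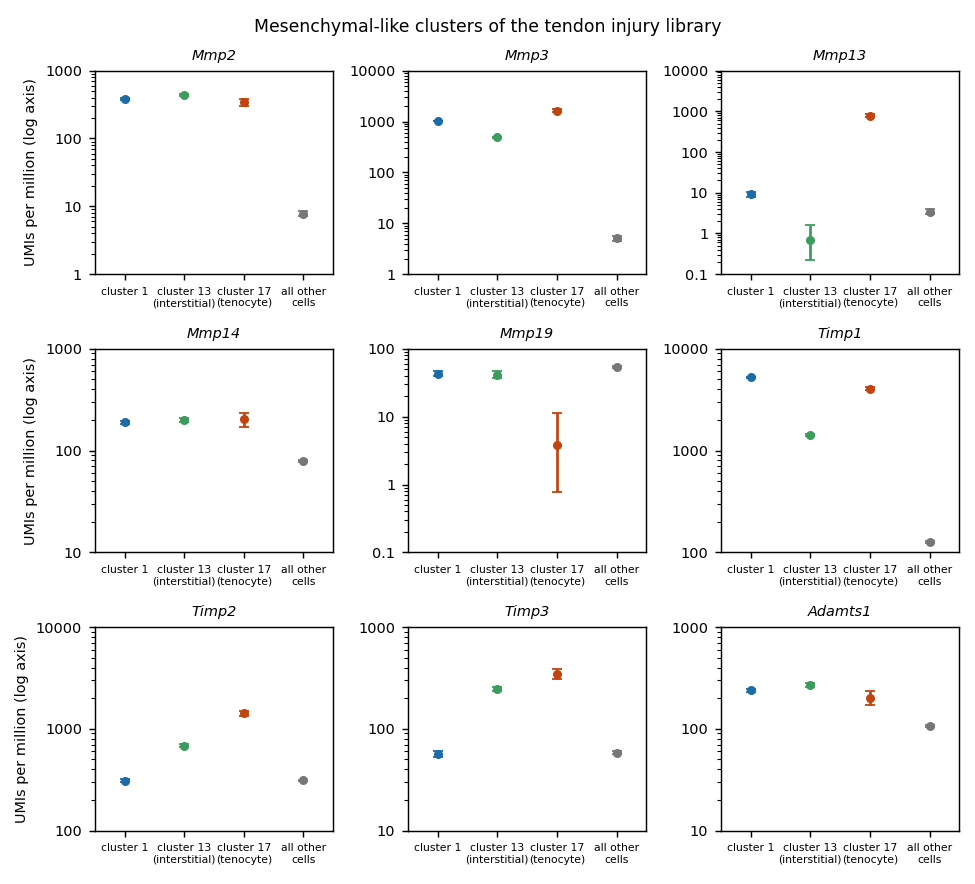
Level of each gene (CPM, log axes that differ between panels) in the 3 mesenchymal-like clusters and in all other tendon injury cells, with exact 95% Poisson intervals for counting error. *Timp2* and *Timp3* rise from cluster 1 to 13 to 17, *Timp1* is lowest of the 3 in cluster 13, *Mmp13* stands out in cluster 17, and *Mmp2* and *Mmp14* are close to level over the 3 clusters and above all other cells.

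Between tenocyte-like and the other 655 mesenchymal-like cells, 4 of the 9 genes differed at least 2-fold. *Timp2* with a log2 ratio of 1.75 (95% interval 1.66 to 1.84), *Timp3* with 1.62 (95% interval 1.44 to 1.80) and *Mmp13* with 6.90 (95% interval 6.65 to 7.15) were higher in tenocyte-like cells, a rule that 6.12% of 12492 genes met, and *Mmp19* with -3.49 (95% interval -5.77 to -1.94) was lower, which 12.5% met. *Mmp3* was close to the rule at 0.93 (95% interval 0.84 to 1.01), but 4 of the 40 cells held 89.6% of its 1286 UMIs, and it was found in 32.5% of tenocyte-like and 59.4% of the other cells. The *Timp3* level of the tenocyte-like cells also rested on few of them, as 4 of the 40 held 52.0% of its 271 UMIs. *Timp1* (-0.03), *Mmp14* (0.07), *Mmp2* (-0.21) and *Adamts1* (-0.31) lay within 2-fold. With the mitochondrial filter left out, the *Mmp13* ratio was 1.10, that of *Mmp19* -0.02, that of *Mmp3* -0.75 and that of *Timp1* -2.19. At resolution 2 *Timp3* stood at 0.21 and so within 2-fold, while *Mmp3* and *Timp1* stood at 2.44 and 1.31. There the 40 cells shared a cluster with 43 cells of cluster 1, described below, so the groups compared were not the same cells. With each cell named by its own markers only *Mmp3* and *Mmp13* passed.

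At equal depth *Timp1* and *Timp2* kept their order over the clusters by median UMIs, and *Timp3* kept its order by the share of cells with a UMI. Of the 695 mesenchymal-like cells, 611 could be thinned to 10000 UMIs. The median cell then had 36 *Timp1* UMIs in cluster 1, 8.5 in cluster 13 and 26 in cluster 17, and 3, 7 and 13 *Timp2* UMIs. *Timp3* was found in 26.1% of cluster 1, 53.9% of cluster 13 and 79.3% of cluster 17 cells. Its median was 0, 1 and 1 UMIs and its upper quartile 1, 3 and 2, so by these cluster 17 was not above cluster 13. *Mmp3*, whose level was highest in cluster 17, was found there in 34.5% of cells, against 51.7% in cluster 1 and 50.9% in cluster 13. In clusters 1, 13 and 17, *Mmp2* was found in 84.7%, 90.4% and 69.0% of cells and *Mmp14* in 75.9%, 81.7% and 55.2%. For *Adamts1* the shares were 73.9%, 74.8% and 69.0%. *Mmp2*, *Timp2* and *Mmp14* were spread less unevenly than *Mmp3*. The richest 62 of the 611 cells held 29.6%, 28.8% and 38.3% of their UMIs, still more than an equal spread would give. *Mmp3* had 71.6% in the richest 62 cells, a median of 1 UMI, an upper quartile of 7 and a maximum of 282. *Mmp3* was detected in 50.6%, *Mmp2* in 86.1%, *Timp2* in 94.4% and *Timp1* in 98.5% of these cells. Over the 36 pairs of genes, the correlation across cells of log-scaled thinned UMIs ran from -0.23 (*Timp1* with *Timp2*) to 0.29 (*Mmp3* with *Timp1*), values from 1 library in sparse counts.

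A finer clustering, at resolution 2, was added after the values were seen. It also regrouped cells across the 3 clusters. All 40 tenocyte-like cells shared a cluster with 43 cells of cluster 1, and 55 cells of cluster 1 shared another with 64 cells of cluster 13. The 43 cells of cluster 1, with *Prg4*, the lubricin gene of gliding surfaces, at 58430 CPM, had *Mmp3* at 4484, *Timp1* at 11797 and *Mmp2* at 535. In the 278 cells that made up most of cluster 1 these were 677, 4708 and 368. *Timp3* was lower in the 43 cells, at 21.5 against 53.6, and *Mmp19* was 12.5 against 45.5. Of cluster 13, 64 cells led by genes such as *Msln* and *Krt19* had *Timp1* at 4036 and *Timp3* at 431, and the other 204 cells, whose leading genes included the tenocyte markers *Tnmd* and *Scx*, had 889 and 206.

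Among the monocyte/macrophage-like cells of the tendon injury, *Timp2* and *Mmp19* ran in opposite directions. The 915 cells of the clusters high in C1q complement genes (4, 5 and 19), which mark macrophages, were set against the 1241 cells of clusters 0, 2 and 15. *Timp2* was 779 (95% interval 763 to 794) against 204 (95% interval 197 to 212), a log2 ratio of 1.93 (95% interval 1.87 to 1.99), and *Mmp19* was 56.2 (95% interval 52.1 to 60.4) against 123 (95% interval 117 to 128), a log2 ratio of -1.13. Of the 9 genes, 1 was thus higher and 1 lower by the 2-fold rule, which 11.8% of 11331 genes met upwards and 4.59% downwards. The upward count was near the share of all genes. The *Mmp19* ratio stood near the rule and was -0.95 with no doublets removed and -0.36 with the libraries integrated, and with each cell named by its own markers *Timp2* stood at 0.85. *Mmp14*, at -0.65 (95% interval -0.77 to -0.52), and *Timp1*, at -0.24 (95% interval -0.37 to -0.10), were lower in the C1q-high cells by less than 2-fold, but with the libraries integrated they were higher, at 0.47 and 0.65, and with the mitochondrial filter left out *Mmp14* passed the rule at -1.18. Cluster 15, the largest of the low group, had a summed C1q level of 4880 against a class mean of 5218 and so lay near the dividing line. The unnamed cluster 14 was left out of both groups, although all 15 monocyte/macrophage markers were raised in it. Its summed C1q level was 5224, just above that line. Without the richest cell for each gene its *Timp2* was 154 and its *Mmp19* 99.9, on the side of the C1q-low cells.

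By cluster, *Timp2* was 35.5 in cluster 0, led by the monocyte gene *Ly6c2*, 58.4 in cluster 2, 392 in cluster 15 and 480.1 in cluster 5. It was 796 (95% interval 765 to 828) in cluster 19, led by interferon-induced genes, and 1041 (95% interval 1013 to 1069.6) in cluster 4, led by *Cd163*, *Lyve1* and *Cd209* family genes, where 99.1% of cells held a UMI. *Mmp19* was 141 (95% interval 131 to 152) in cluster 0, 115 in cluster 2 and 113 in cluster 15, and 49.1 to 66.3 in the 3 C1q-high clusters. *Mmp14* and *Timp1* shared another order, both highest in cluster 15 (167 and 95.1) and next in cluster 5 (99.6 and 86.0). *Mmp14* was lowest in cluster 0 at 21.3 and *Timp1* in cluster 19 at 27.5.

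**Figure D4:**
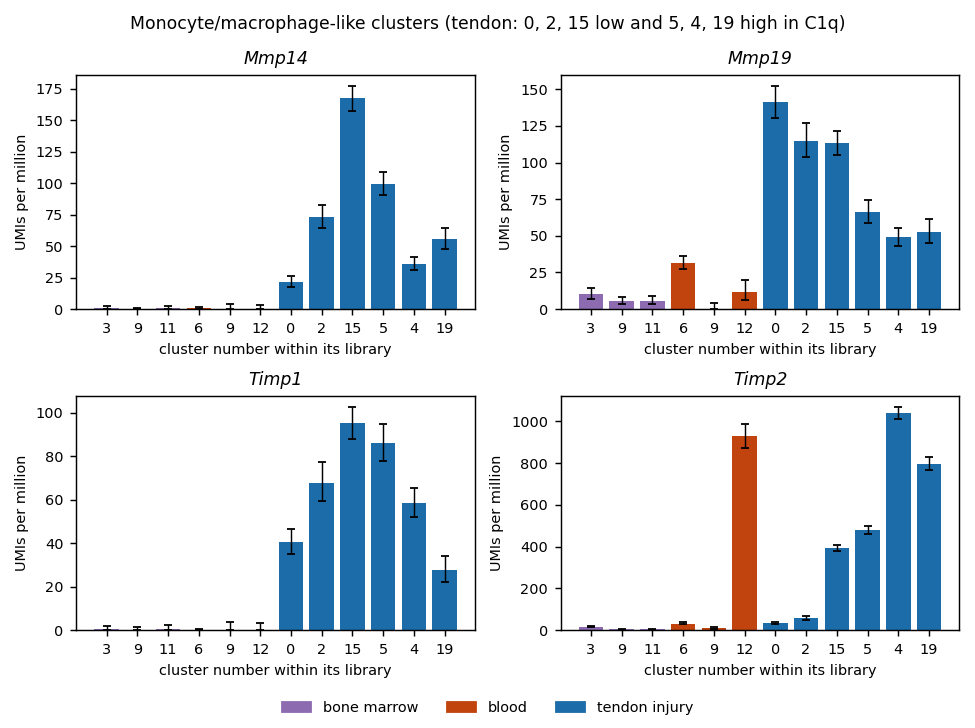
Level (CPM, axes from 0, bars with exact 95% Poisson intervals) of 4 genes in the monocyte/macrophage-like clusters of bone marrow (purple), blood (orange) and tendon injury (blue), each cluster under its number within its library. *Mmp14* and *Timp1* are near 0 outside the tendon injury, *Mmp19* falls from cluster 0 to clusters 4 and 19, and *Timp2* is high in tendon clusters 4 and 19 and in blood cluster 12.

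All 9 genes were at least 2-fold higher in monocyte/macrophage-like cells of the tendon injury than of blood, a rule that 16.4% of 11806 genes met. For 5 of them blood held 0 UMIs in 463 cells, so only a bound can be given: log2 ratios of at least 7.45 for *Timp1*, 4.0 for *Mmp13*, 3.02 for *Mmp3*, 2.25 for *Adamts1* and 1.74 for *Timp3*, against a floor of 3 counts over the blood class. *Mmp14* and *Mmp2* each had 3 UMIs in blood and log2 ratios of 7.76 (95% interval 6.22 to 10.04) and 2.90 (95% interval 1.29 to 5.20). The 5 genes reached the minimum of UMIs that the rule asks for through the tendon injury alone, and *Mmp14* and *Mmp2* nearly so. Such genes could hardly have counted as lower. The count of 9 is therefore a description and not a test against the 16.4% of all genes. *Mmp19* was 91.6 in tendon and 25 in blood, a log2 ratio of 1.88 (95% interval 1.67 to 2.09), and *Timp2* was 472 and 157, a log2 ratio of 1.59 (95% interval 1.51 to 1.68). The blood value of *Timp2* rested on 37 cells of cluster 12, high in C1q genes, with 928, and without them it was 28.5 and the log2 ratio 4.05. Markers of mesenchymal cells moved with this comparison too: their summed level was 82.1 in tendon, where all 13 had a UMI, and 2.04 in blood, where 9 of 13 were at 0. The ratios to collagen given below bear on this.

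In blood, *Mmp19* was 31.6 (95% interval 27.2 to 36.5) in cluster 6, led by genes such as *F13a1* and *Ccr2*, and 0 in 115 cells of cluster 9, led by *Ace* and *Cd300e*, which allows up to 3.19. Marrow monocyte/macrophage-like cells stood at 6.95 (95% interval 5.42 to 8.78). Blood cluster 6 thus stood above marrow and below all 6 tendon clusters, with intervals that did not overlap.

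In neutrophil-like cells, 3 of the 9 genes reached 20 UMIs over blood and tendon injury and 2 of these met the 2-fold rule, which 17.0% of 6714 genes met upwards. *Timp1* was 21.4 (95% interval 15.8 to 28.4) in tendon and 0 in blood, a log2 ratio of at least 4.69, and *Mmp19* was 15.6 (95% interval 10.9 to 21.7) against 2.21 (95% interval 0.953 to 4.35), a log2 ratio of 2.82 (95% interval 1.69 to 4.14). *Timp1* reached the minimum of UMIs through the tendon injury alone, and the 35 tendon injury UMIs of *Mmp19* would also have reached it without blood. The count of 2 is therefore a description and not a test against the 17.0% of all genes. *Timp2* was 275 in tendon and 275 in blood, a log2 ratio of 0.00 (95% interval -0.15 to 0.15). That interval covers counting error only and does not bound a difference between the sites. With no doublets removed the ratio was 0.43.

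*Timp2* was also the gene with a spread inside marrow neutrophils. Over the 5 neutrophil-like clusters of the marrow it was 8.03 (95% interval 6.11 to 10.4) in cluster 0, led by histone genes, 48.5 (95% interval 43.1 to 54.4) in cluster 5, 164 (95% interval 153 to 175) in cluster 1, 261 (95% interval 238 to 285) in cluster 2 and 335 (95% interval 305 to 367) in cluster 8, led by *Il1b*. Depth fell over the same clusters, from a median of 38106.5 in cluster 0 to 10173.5 in cluster 8 UMIs a cell. With every cell thinned to 1000 UMIs the share with a *Timp2* UMI still ran from 1.04% in cluster 0 to 27.3% in cluster 8. Granulocyte progenitor-like cells stood at 8.10. In the whole marrow library *Mmp3*, *Mmp13* and *Adamts1* had 0 UMIs in all 1813 cells and *Mmp2*, *Timp1* and *Timp3* had 3, 4 and 1. Of the 30 *Mmp14* UMIs there, 23 lay in 34 basophil/mast-like cells, at 20.9 (95% interval 13.3 to 31.4).

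Free RNA can enter the droplets of other cells, and RNA from 1 source then keeps its genes in 1 ratio. Each gene was therefore counted per UMI of *Col1a1*, *Col1a2* and *Col3a1*, and the ratio was set against that of the mesenchymal-like cells. In neutrophil-like cells *Timp1* stood at 0.978 times the mesenchymal-like ratio (log2 -0.03 (95% interval -0.52 to 0.43)), *Mmp3* at 1.04 and *Mmp2* at 0.853, none of which differed from that ratio beyond counting error. They rest on 48, 11 and 4 UMIs, too few for *Mmp3* and *Mmp2* to show any but a large difference. The part of free RNA in these levels, and in the *Timp1* difference from blood, was not tested further. *Mmp3* in monocyte/macrophage-like cells, at 1.07 times (log2 0.10 (95% interval -0.23 to 0.42)), did not differ from it either, whereas *Timp1* there stood at 4.95 times, *Mmp13* at 62.0, *Mmp14* at 132, *Timp2* at 321 and *Mmp19* at 674 times. *Mmp2*, *Adamts1* and *Timp3* stood at 2.21, 2.27 and 3.28 times there, on 78, 50 and 35 UMIs in 2156 cells. In keratinocyte-like cells *Mmp3* stood at 10.5 times and *Adamts1* at 304 times, and in endothelial-like cells *Timp3* stood at 171 and *Adamts1* at 144 times. Mural-like cells make collagen themselves, and their *Mmp3* stood at a log2 of -8.48 (95% interval -10.76 to -6.93) and their *Mmp2* at -4.14 (95% interval -4.74 to -3.60). The mesenchymal-like ratio is a mean over cells that differ among themselves. These cells also held only 47.8% of the *Timp3* and 50.6% of the *Adamts1* UMIs, so free RNA of these genes need not have 1 source. How large a factor this allows was not tested, and the factors of 2.21 to 4.95 cannot be told apart from that ratio here.

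**Figure D5:**
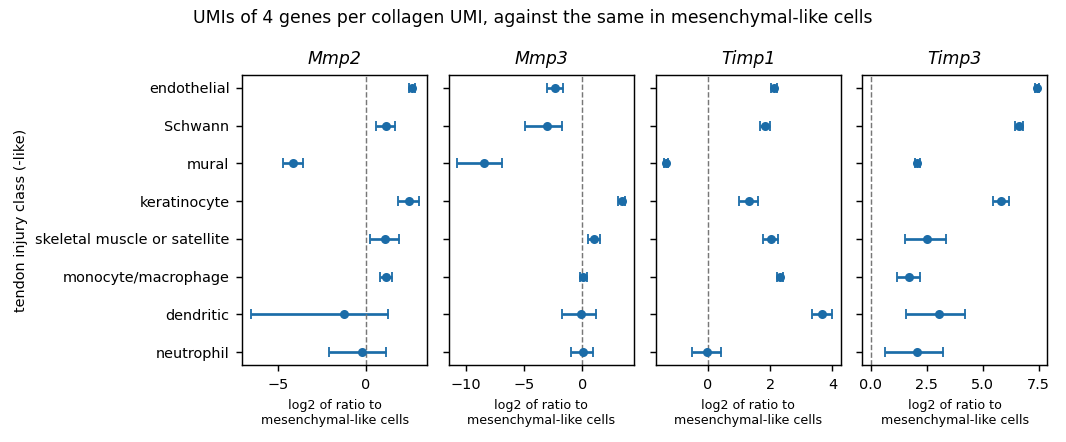
Log2 of the UMIs of a gene per collagen UMI (*Col1a1*, *Col1a2* and *Col3a1*) in each tendon injury class, relative to the same ratio in mesenchymal-like cells (dashed line at 0), with exact 95% intervals for counting error; the axes differ between panels. *Mmp3* and *Timp1* lie at 0 in neutrophil-like cells, *Timp3* lies to the right of 0 in all 8 classes, and *Mmp2* and *Mmp3* lie to the left of 0 in mural-like cells.

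Genes that share the pathway were counted from 3 lists under the same 2-fold rule in mesenchymal-like against other tendon injury cells. Of 18 other matrix metalloproteinases, 12 reached 20 UMIs, 4 were higher and 7 lower, where 16.7% of all genes tested were higher and 24.1% lower. *Mmp23* (log2 ratio 4.67) was higher, and *Mmp9* (-4.53), *Mmp8* (-6.53) and *Mmp12* (-6.95), enzymes of neutrophils and macrophages, were lower. Of 18 other *Adamts* genes, 16 reached 20 UMIs, 9 were higher and 1 was lower, and the higher ones included the aggrecanase *Adamts5* (4.61 (95% interval 4.49 to 4.74)) and *Adamts2* (2.93), which trims procollagen. *Adamts4* at 0.30 and *Adamts9* at -0.70 stayed within 2-fold. Of 16 genes of activation, inhibition and clearance, 10 were higher and 3 lower. The higher ones included the convertase *Pcsk5* (6.92 (95% interval 6.64 to 7.21)), the plasminogen activators *Plat* (3.04) and *Plau* (1.30) and the clearance receptor *Lrp1* (1.30), while the urokinase receptor *Plaur* (-1.65), *Serpinb2* (-2.36) and the further inhibitor gene *Timp4* (-6.66) were lower. The medians of the log2 ratios over the members that reached 20 UMIs were -1.61, 2.12 and 1.72 for the 3 lists, beside 0.02 for all genes.

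The genes most like each of the 9 over the 16 tendon injury clusters of 50 or more cells were found by Pearson's r of log2(CPM + 1), a description over clusters of 1 library. For *Mmp2* they were *Fbln2*, *Prickle1* and *Myh10* (r = 0.95, 0.95 and 0.94), for *Mmp3* *Slc1a3*, *Tnfsf11* and *Bnc2* (0.97, 0.96 and 0.95) and for *Timp1* *Arfgap3*, *Plat* and *Gfpt2* (0.92, 0.92 and 0.91). *Timp3* was closest to *Mageh1*, *Lamb1* and *Prss23* (0.97, 0.96 and 0.96) and *Adamts1* to *Ehd2*, *Parva* and *Prkcdbp* (0.98, 0.97 and 0.97). *Mmp14* was closest to *Pprc1*, *Ctdnep1* and *Pdia6* (0.92, 0.91 and 0.91), *Mmp19* to *Slc35b2*, *Cmtm7* and *Sh3kbp1* (0.93, 0.91 and 0.91) and *Timp2* to *Zyg11b*, *Itsn1* and *Cant1* (0.87, 0.85 and 0.84). *Mmp13*, whose tenocyte-like cluster was too small to enter, had no close match, with *Plekhj1*, *F7* and *Pdxk* at 0.73, 0.72 and 0.70. Among the 9 genes themselves *Timp3* and *Adamts1* were most alike (0.90), followed by *Mmp2* with *Timp1* and with *Mmp3* (both 0.82), and *Mmp19* ran against *Adamts1* (-0.69).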

How the data were processed

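Single-cell libraries (10x 3' chemistry) were analysed from 3 tissues, 1 library each. The authors deposited raw UMI counts per gene and cell barcode, which the submitters' processing notes tie to Cell Ranger 5.0.1 and the genome build mm10. Cells with 200 or more genes and at most 20% mitochondrial UMIs were kept, which removed 15 marrow, 57 blood and 651 tendon injury barcodes. Doublets were scored with Scrublet in scanpy 1.11.5. Because its automatic threshold marked 0 tendon injury cells, the highest scores were removed at 0.8% per 1000 cells (27, 38 and 198 cells).

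Each library was clustered on its own (2000 variable features without the 9 genes and listed genes, 30 principal components, 15 neighbors, Leiden resolution 1). A cluster took a name where 3 or more markers of 1 list lay at least 1 log2 step above the other clusters and its 10 leading genes did not go against it. That rule was settled after the clusters were seen, and the 9 genes and all lists were chosen with earlier results of these data known. The annotation used by the files lacked some T and B cell receptor genes, so those lists were shorter.

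UMIs were summed per class and divided by all UMIs of the class, with exact Poisson intervals for levels, exact Clopper-Pearson intervals for shares and an interval from the exact binomial split for ratios, all at 95% and for counting error only. A gene with 20 or more UMIs over both groups was counted at a 2-fold difference whose interval left out no difference. With 1 library per tissue there is no test. For shares of cells, 1000 UMIs were drawn from each cell (10000 within mesenchymal-like cells) and shallower cells were left out (at 1000 UMIs, 0 to 23 cells per class, the most among monocyte/macrophage-like and 21 among neutrophil-like cells of the tendon injury; 84 mesenchymal-like cells at 10000). Named are the 9 genes, listed genes with 500 or more UMIs in the tendon injury library that the text needs, and the 3 genes most like each member among genes with 500 or more UMIs. The values of 1 listed gene are not reported here. The ratio script was tested on simulated data with 200 changed genes, and for mesenchymal-like against other cells 95.5% of the changed genes had the true ratio inside the interval. Library totals were 49580625 (marrow), 22542581 (blood) and 90621052 UMIs (tendon injury). The alternatives tried were other filters, doublet settings, resolutions, scalings, folds, depths of thinning, naming of single cells, and integration in Seurat 5.3.0.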

Additional observations from a re-analysis of the deposited data

How the results depend on the processing

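Of 64 planned recomputations of the counts of genes past 2-fold, 55 stayed within 1.5 times the main count and 9 did not, and 149 of 498 single log2 ratios and 35 of 54 shares of cells after thinning lay outside the counting interval of the main value. Of the 308 recomputed ratios whose main value was past 2-fold, 0 changed sign, whereas 32 of the other ratios did. Among these 32 were *Mmp3* between tenocyte-like and other mesenchymal-like cells, at -0.75 with no mitochondrial filter, and *Mmp13*, *Mmp14* and *Timp1* between C1q-high and C1q-low cells, at 0.68, 0.47 and 0.65 with the libraries integrated. The 308 include ratios against 0 blood UMIs, which are bounds set by the floor of 3 counts. A kept sign also did not mean a kept difference. Between tenocyte-like and other mesenchymal-like cells *Mmp19* fell to -0.02 and *Timp3* to 0.21. With a fold of 4, the count in mesenchymal-like cells fell to 4 genes, that between tenocyte-like and other mesenchymal-like cells to 2 and that between C1q-high and C1q-low cells to 0. With each cell named by its own markers the latter 2 counts were 2 and 1. The C1q count was also 1 with no doublets removed, with the automatic doublet threshold and with libraries integrated by Seurat anchors, where *Timp2* alone passed. With no minimum of UMIs, 6 genes passed between tendon injury and blood neutrophil-like cells. Resolution 0.5 gave no tenocyte-like cluster and so no value. The cause of these shifts was not tested, apart from the fold, the minimum and the depth of thinning, which act by construction. The shares of cells were recomputed at 500 and 2000 UMIs a cell, and the number of UMIs drawn changes how often a gene is found. Without the blood cluster high in C1q genes, chosen after seeing the data, all 9 genes still passed between tendon injury and blood monocyte/macrophage-like cells. Those with 0 UMIs in blood did so against the floor of 3 counts. No paired analysis was possible because each tissue has 1 library. Depth limits the low values, since the 560 neutrophil-like cells of the tendon injury held a median of 3492 UMIs and the mesenchymal-like cells 34300.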

Other observations

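The other proteinases and the remaining inhibitor of the pathway lists had class patterns of their own in the tendon injury library. *Mmp9* (gelatinase B) stood at 1373 (95% interval 1325 to 1423) in neutrophil-like cells and at 58.0 (95% interval 55.2 to 60.9) in monocyte/macrophage-like cells. Its level was 509.6 (95% interval 487 to 533) in the skeletal muscle-like class, in which 61 of 177 cells carried neutrophil genes such as *S100a8*. The part of these 61 cells in that level was not tested. *Mmp8*, the neutrophil collagenase, stood at 607 (95% interval 575 to 640.2) in neutrophil-like cells and 39.6 (95% interval 37.3 to 42.1) in monocyte/macrophage-like cells. *Timp4* was led by mural-like cells at 106 (95% interval 95.2 to 119) and endothelial-like cells at 41.5 (95% interval 37.3 to 46.1). At the finer clustering it was among the genes leading the 141 cells of endothelial-like cluster 7 that carried the mural gene *Rgs5*. A *Timp4* UMI was found in 69 of 292 endothelial-like and 26 of 111 mural-like cells. *Adamts4* and *Adamts9*, which like *Adamts1* cut proteoglycans, were also led by these vessel classes, with *Adamts9* at 193 (95% interval 184 to 203) in endothelial-like and 130.1 (95% interval 118 to 144) in mural-like cells and *Adamts4* at 87.5 (95% interval 81.3 to 94.0) and 107 (95% interval 95.8 to 119). *Mmp23* was led by mesenchymal-like cells at 122 (95% interval 118 to 127), followed by mural-like cells at 75.3 (95% interval 65.9 to 85.6). All values are CPM with exact Poisson intervals for counting error in 1 library.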
